A study of Mus musculus with 8 samples.

Results

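The 31 genes described here encode enzymes of cholesterol and fatty acid synthesis together with the proteins that sense sterols and set the level of those enzymes. They were listed by symbol for their role in lipid synthesis under SREBP control. The rule uses no measured value, but the list was chosen with earlier results of these data known. Each gene matched 1 of the 49315 Ensembl gene IDs in the count table. All 31 passed the filter on low counts, the smallest count of any of them in any library being 218. They fall into 7 genes of the mevalonate arm, 10 genes that lead from squalene to cholesterol, 5 genes of sterol sensing and carriage and 9 genes of fatty acid synthesis and desaturation.

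Their RNA was measured by bulk sequencing of calvaria (skull cap bones) from 4 wild-type (WT) and 4 Girk3 knockout (Girk3-/-, KO) mice. All were C57BL6 females aged 2 to 3 days, with 1 library for each of the mice the labels count. Girk3, encoded by Kcnj9, is a subunit of a potassium channel opened by G proteins, its deletion is global, and the series asks how its loss affects bone mass. Kcnj9 held 0, 0, 1 and 4 counts in wild type and 2, 5, 7 and 9 in knockout, so it does not check the labels at this depth, and "knockout" means the libraries labelled so. Library totals ran from 35392465 to 54290034 counts. Levels are given as CPM, counts as a share of the scaled library total. The summed level of 16 skeletal muscle markers was 31.2, 68.6 and 176 CPM in wild-type replicate 3 and knockout replicates 2 and 3, against 770 to 2854 CPM in the other 5 libraries. These 3 muscle-poor libraries stand apart and include both genotypes, so the counts are also given without them. Knockout replicate 4 also stands apart: it had the lowest total, yet 28520 genes held a read in it, where the other 7 libraries ranged from 24545 to 25729 genes. Without it 608 genes were called in the whole table, against 234 with all libraries.

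Cells build cholesterol from acetyl-CoA through mevalonate, isoprenyl diphosphates and squalene, and build fatty acids from the same precursor. Both routes are controlled by SREBP transcription factors, which Insig holds, bound to Scap, in the endoplasmic reticulum while sterols are plentiful; when sterols run low, Scap carries them to the Golgi, where proteolysis frees the active factor. SREBP-2, from Srebf2, acts mainly on cholesterol genes and on its own gene, and SREBP-1, from Srebf1, mainly on fatty acid genes. SREBPs bind sterol regulatory elements (SRE) and E-boxes, and usually act with NF-Y, a factor that binds CCAAT. In bone the mevalonate arm is known as the target of nitrogen-containing bisphosphonates, which block farnesyl diphosphate synthase in osteoclasts.

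The choice of genes used no promoter sequence, but it took genes under SREBP control. As SREBPs usually act with NF-Y, the share of promoters with CCAAT is not independent of that choice. RefSeq start sites (GRCm38.p6) were at hand for 24 of the 31 genes; Fads1, Fdft1, Fdps, Scd1, Scd2, Sqle and Stard4 had no entry. In the 250 bases before a start site (any annotated start of a gene, either strand), the letters CCAAT occurred in 18 of the 24 genes (75%). They occurred in 37.5% of 27025 genes with a window and in 39.6% of 12281 such genes that were tested here. Most of the genes with CCAAT were cholesterol genes. Of the fatty acid genes only Acss2 and Fasn held it, and Acly, Acaca, Elovl6 and Fads2 had a window without it. The Acaca window, from chr11:84195188, lies inside the gene, which starts at 84129672, so it does not cover the first annotated start. Of the 250 bases, 129 in Elovl6, 243 in Fads2 and 95 in Acss2 lay in annotated exons, against 0 in Acly and Fasn. The E-box CACGTG occurred in 4 of the 24 (Sc5d, Dhcr7, Scap and Insig1, 16.7%, against 6.86% and 9.28%). The E-box and the CCAAT of Dhcr7 lay in windows wholly within its annotated exons, and the window at its first start held neither. The CCAAT windows of Idi1 and Tm7sf2 also lay wholly within annotated exons. The 24 genes had 30 windows, and further starts add chances of a match. Windows per gene over all genes are not given. The SRE-like letters TCACNCCAC occurred in 1 of the 24, Hmgcs1 (4.17%, against 1.22% and 1.33%). A match is a run of letters and not a shown binding site, looser forms of the SRE were not searched, and CCAAT does not overlap the other motifs in the windows shown. The 5 windows below are shown because they include the SRE-like match, an E-box, a fatty acid gene and the gene with the lowest change of the 31, and because they hold no annotated exon; capitals mark the motifs, CCAAT appearing as ATTGG where it lies on the other strand.
Hmgcs1, chr13:119690101-119690350, plus strand: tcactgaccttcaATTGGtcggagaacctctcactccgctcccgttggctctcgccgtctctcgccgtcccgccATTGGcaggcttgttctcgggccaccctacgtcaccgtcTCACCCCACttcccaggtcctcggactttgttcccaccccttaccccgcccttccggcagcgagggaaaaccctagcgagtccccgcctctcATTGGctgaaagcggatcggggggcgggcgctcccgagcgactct
Mvd, chr8:122443423-122443672, minus strand: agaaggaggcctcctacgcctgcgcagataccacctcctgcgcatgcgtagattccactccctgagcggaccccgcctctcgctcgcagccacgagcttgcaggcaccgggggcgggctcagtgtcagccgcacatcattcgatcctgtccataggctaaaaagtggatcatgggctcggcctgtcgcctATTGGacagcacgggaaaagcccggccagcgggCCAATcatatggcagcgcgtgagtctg
Ebp, chrX:8193513-8193762, minus strand: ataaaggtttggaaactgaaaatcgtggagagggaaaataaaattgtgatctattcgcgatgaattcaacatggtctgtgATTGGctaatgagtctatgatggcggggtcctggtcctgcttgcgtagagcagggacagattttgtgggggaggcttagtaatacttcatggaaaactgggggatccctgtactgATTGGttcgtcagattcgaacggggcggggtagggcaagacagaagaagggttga
Sc5d, chr9:42264301-42264550, minus strand: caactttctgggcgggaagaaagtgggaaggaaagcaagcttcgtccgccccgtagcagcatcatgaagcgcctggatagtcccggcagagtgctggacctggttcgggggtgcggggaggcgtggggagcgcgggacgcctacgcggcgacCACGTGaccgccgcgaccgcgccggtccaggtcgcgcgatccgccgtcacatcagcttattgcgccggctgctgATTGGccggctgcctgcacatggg
Fasn, chr11:120824548-120824797, minus strand: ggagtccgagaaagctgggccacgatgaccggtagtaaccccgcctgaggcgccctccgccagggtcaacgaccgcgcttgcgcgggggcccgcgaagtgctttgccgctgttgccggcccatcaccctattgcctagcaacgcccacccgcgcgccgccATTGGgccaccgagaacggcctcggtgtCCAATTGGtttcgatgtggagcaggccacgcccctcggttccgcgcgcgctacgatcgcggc
Ebp carries 2 CCAAT matches, as many as Mvd. Whether the matches relate to the changes given below was not tested. Fasn carries 3 CCAAT matches, of which 2 overlap on opposite strands.

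Most of the 31 genes had a small positive log2 change, knockout over wild type, with a median of 0.32 over the 17 enzymes from acetyl-CoA to cholesterol and 0.15 over the 9 fatty acid genes. The order of these medians turned, to 0.265 and 0.33, with a score of myelin markers as a covariate, chosen after seeing the data. The log2 change was above 0 in 29 of the 31, with a median of 0.22, whereas 49.9% of all 17743 tested genes were above 0 and their median was -0.00029. By edgeR's quasi-likelihood test with Benjamini-Hochberg adjustment over all tested genes, 1 of the 31 rose and none fell at an adjusted p under 0.05. Over all genes 1.32% were called, 0.445% higher and 0.874% lower, so that 66.2% of the calls were lower; with library totals in place of TMM scaling 46.7% were. At an adjusted p under 0.1 there were 9 of the 31, all higher, against 1.23% of all genes called higher at that level, and at an unadjusted p under 0.05 there were 17, all higher, against 8.29% (and 9.11% lower). The 4 knockout libraries all lay above the 4 wild-type libraries in 12 of the 31 genes and never all below, against 4.63% of tested genes above and 5.96% below. Among the 10649 genes whose mean CPM was at least that of the least abundant of the 31, the share above was 4.24%. In a bulk sample, fewer cells of a type and less RNA per cell cannot be told apart.

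The count of calls depended on the test. DESeq2 called 14 of the 31, all higher, against 2.33% of all genes higher and 3.04% lower, and limma-voom called none, against 0.287% higher and 0.654% lower. Without the 3 muscle-poor libraries no member was called, 8 genes were called in the whole table (0.0434%), 30 of the 31 changes were above 0 and their median was 0.27. In the remaining 5 libraries, 3 of wild type and 2 of knockout, knockout lay above wild type in 18 of the 31, against 12.1% of tested genes. Without knockout replicate 4, 4 of the 31 were called (Fdft1, Sqle, Lss and Elovl6; 1.69% of all genes higher), 28 changes were above 0 with a median of 0.22, and knockout lay above wild type in 14, against 9.85% of tested genes.

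**Figure D1:**
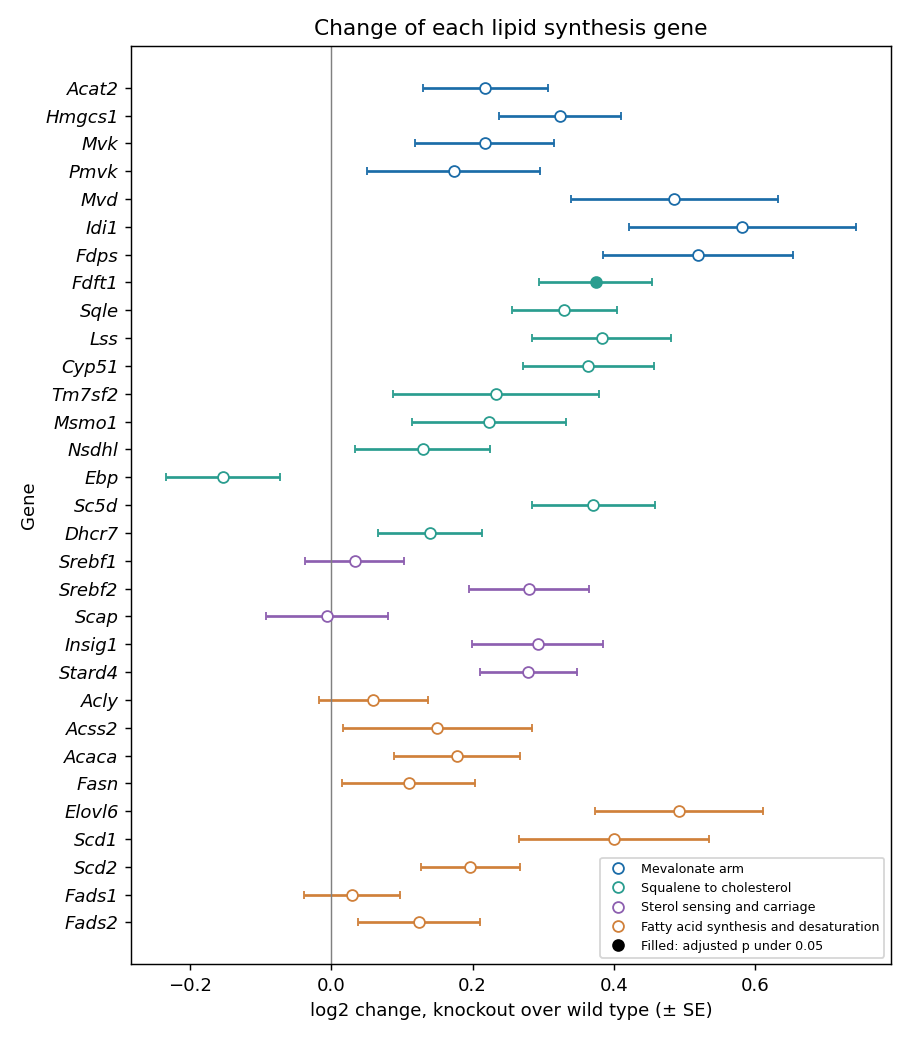
The log2 change of each of the 31 genes (knockout over wild type, with its standard error) is plotted by role, 1 gene a line. All but Ebp and Scap lie to the right of 0, and Fdft1 is the filled point, the 1 gene with an adjusted p under 0.05.

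All 7 genes of the mevalonate arm had a log2 change above 0, from 0.17 to 0.58 with a median of 0.32. None was called by edgeR, 6 had an unadjusted p under 0.05 and DESeq2 called 4. Over all tested genes, the shares to set beside this role and those below, 8.29% were higher at that unadjusted p. DESeq2 called 2.33% of all genes higher. Fdps, farnesyl diphosphate synthase, held 25.8, 21.0, 18.9 and 19.4 CPM in wild-type replicates 1 to 4 and 27.9, 24.7, 32.4 and 37.3 CPM in knockout replicates 1 to 4. Only wild-type replicate 1 reached into the knockout range, above knockout replicate 2. The log2 change of Fdps was 0.52 ± 0.134 (SE, edgeR adjusted p = 0.0909). Reads of Fdps may be shared with Gm43738, a model on the same strand that covers 26.7% of its exon bases and held 0.0168 CPM in wild type.

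Idi1, which isomerises isopentenyl diphosphate, had the largest change of the 31. It stood at 6.64, 5.24, 9.26 and 7.04 CPM in the wild-type libraries and at 9.78, 9.37, 12.7 and 10.4 CPM in those of knockout. The groups did not overlap, though wild-type replicate 3 came close to knockout replicate 2. Its log2 change was 0.58 ± 0.161 (SE, edgeR adjusted p = 0.104). Hmgcs1, the synthase that makes HMG-CoA, stood at 89.3, 99.5, 94.5 and 86.5 CPM in the wild-type libraries and at 105, 105, 132 and 122 CPM in those of knockout. Again no knockout library fell within the wild-type range, and the change was 0.32 ± 0.0868 (adjusted p = 0.0941). Mvd, which makes isopentenyl diphosphate, also separated the groups, with 8.84 to 9.42 CPM in wild type and 10.3 to 17.3 CPM in knockout (log2 change 0.49, adjusted p = 0.128). Knockout replicate 4 held its highest value, and without that library the change of Mvd was 0.31. The kinases Mvk and Pmvk and the thiolase Acat2 overlapped between the groups, with changes of 0.22, 0.17 and 0.22. Without knockout replicate 4 the changes of Mvk and Pmvk were 0.13 and 0.042. Acat2 has a close copy, Acat3, at mean levels of 1.03 (wild type) and 0.958 CPM (knockout), against 20.7 and 24.0 CPM for Acat2.

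In the stretch from squalene synthesis to cholesterol, 1 of 10 genes rose, 9 had a change above 0 and the median was 0.28. Fdft1, squalene synthase, the first enzyme committed to sterols, stood at 28.1, 26.5, 27.3 and 26.3 CPM in the wild-type libraries and at 33.1, 31.1, 38.6 and 37.6 CPM in those of knockout. Every knockout library was above every wild-type library, with knockout replicates 3 and 4 the highest. Fdft1 rose 1.30-fold, by 0.37 ± 0.0798 on the log2 scale (SE, edgeR adjusted p = 0.0418; higher in 4 of 4 knockout libraries). Leaving out any single library other than knockout replicate 4 ended the call (edgeR adjusted p from 0.0505 to 0.129; 0.0409 without knockout replicate 4). It also ended in limma-voom (0.0645), without the muscle-poor libraries (0.354) and with the macrophage or myelin score as a covariate (0.731 and 0.433), scores with which no gene of the table was called. Fdft1 lies on chromosome 14 (63145150 to 63179578, minus strand, GRCm38/mm10), and 18.3% of its exon bases overlap Ctsb on the opposite strand. Ctsb, a lysosomal protease gene, had mean levels of 790 (wild type) and 633 CPM (knockout), a log2 change of -0.32 (edgeR adjusted p = 0.059) opposite in sign to that of Fdft1. How many Ctsb reads were counted to Fdft1 was not tested.

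Sqle, squalene epoxidase, a rate-limiting step of the sterol branch, stood at 41.4, 41.1, 41.5 and 41.1 CPM in the wild-type libraries and at 51.0, 46.1, 58.1 and 52.3 CPM in those of knockout. The wild-type values of Sqle lay closer together than counting error alone gives on average: their SD was 0.208 CPM, where counting alone gives 0.96 CPM. The change of Sqle was 0.33 ± 0.0744 (SE, edgeR adjusted p = 0.0531). Sc5d, a desaturase of the last steps, stood at 25.2, 26.7, 24.8 and 24.7 CPM in the wild-type libraries and at 28.3, 31.4, 37.7 and 33.9 CPM in those of knockout, again without overlap, with a change of 0.37 ± 0.0872 (adjusted p = 0.059). Lss, which closes the first sterol ring system, likewise did not overlap between the groups, with a change of 0.38 (adjusted p = 0.0837). Nor did Cyp51, which removes a methyl group from lanosterol, with a change of 0.36 (adjusted p = 0.0778). Akap9, on the opposite strand, overlaps 3.76% of the exon bases of Cyp51. Its mean levels were 69.0 (wild type) and 89.6 CPM (knockout), a log2 change of 0.38 (edgeR adjusted p = 0.19). How many Akap9 reads were counted to Cyp51 was not tested. Dhcr7, the last reductase, separated the groups by a small step, from 16.3 to 18.6 CPM in wild type and from 18.7 to 20.2 CPM in knockout, with a change of 0.14 (adjusted p = 0.349). Tm7sf2, Msmo1 and Nsdhl, which act between Cyp51 and Ebp, overlapped, with changes of 0.23, 0.22 and 0.13. Tm7sf2 shares 12.1% of its exon bases with Vps51 on the same strand, so its value is uncertain. The change of Tm7sf2 was 0.10 without knockout replicate 4, that of Msmo1 0.13 without knockout replicate 3 and that of Nsdhl 0.060 without wild-type replicate 2. Ebp, the sterol isomerase, was the only enzyme of this route below 0: it stood at 42.9, 38.1, 35.6 and 37.2 CPM in the wild-type libraries and at 32.3, 33.6, 33.6 and 38.8 CPM in those of knockout, and its change of -0.15 ± 0.0813 did not pass (adjusted p = 0.352; change -0.098 without wild-type replicate 1).

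**Figure D2:**
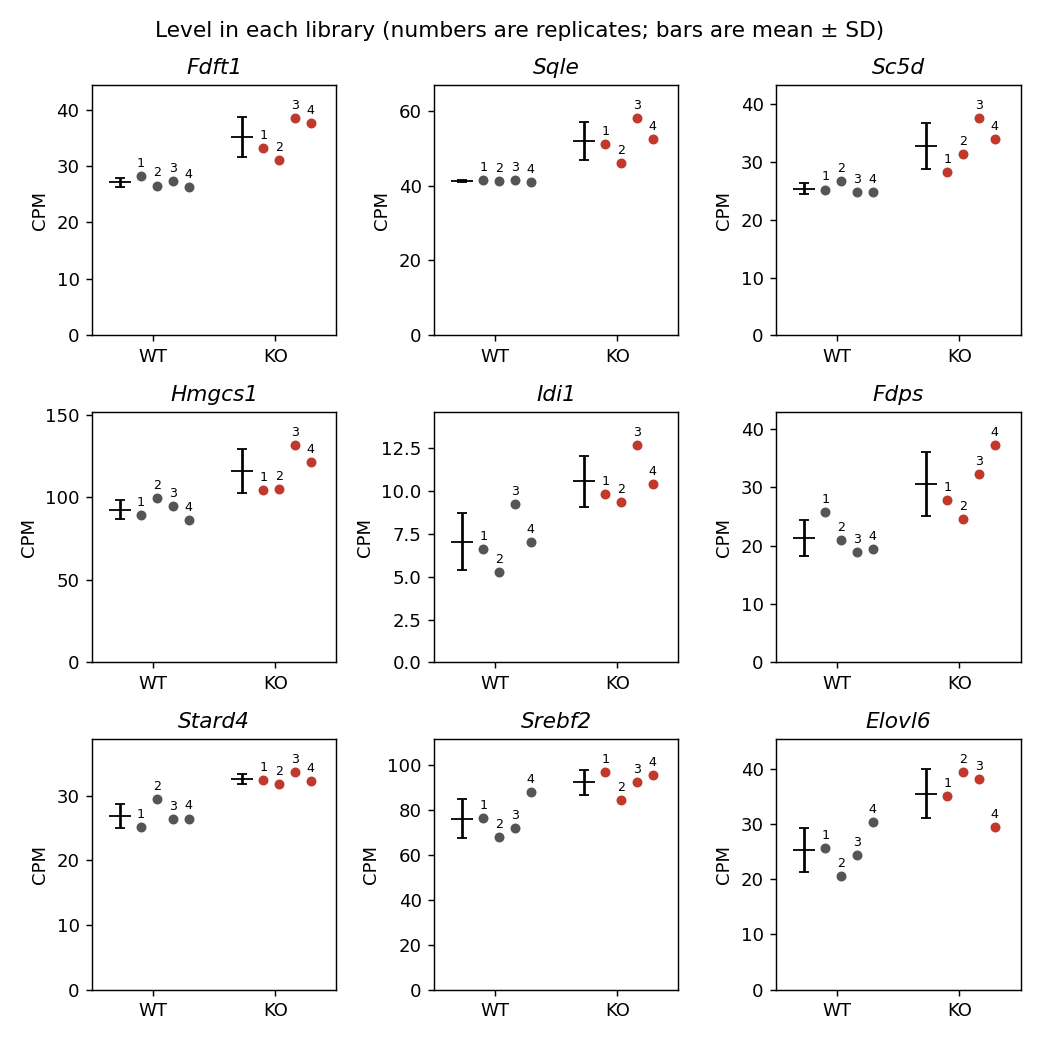
Each panel plots the CPM of 1 gene in the 4 wild-type (grey) and 4 knockout (red) libraries, with replicate numbers and the mean ± SD as a bar at the left of each group. Fdft1, Sqle, Sc5d, Hmgcs1, Idi1 and Stard4 show no overlap between the groups, while Fdps, Srebf2 and Elovl6 each have 1 wild-type library within the knockout range.

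Among the 5 genes of sterol sensing and carriage, Srebf2, Insig1 and Stard4 had log2 changes from 0.28 to 0.29, and Srebf1 and Scap had changes near 0. None was called by edgeR, although the first 3 had an unadjusted p under 0.05 and DESeq2 called them; limma-voom called 0. Srebf2 stood at 76.3, 68.0, 72.0 and 87.9 CPM in the wild-type libraries and at 96.9, 84.4, 92.4 and 95.7 CPM in those of knockout. Wild-type replicate 4 was above knockout replicate 2 and the rest did not overlap, with a change of 0.28 ± 0.0852 (SE, edgeR adjusted p = 0.129). Insig1, which retains Scap in the endoplasmic reticulum and is itself an SREBP target, stood at 63.4, 69.2, 66.5 and 57.7 CPM in the wild-type libraries and at 72.8, 71.3, 93.1 and 77.2 CPM in those of knockout. The groups of Insig1 did not overlap and its change was 0.29 ± 0.0924 (adjusted p = 0.143). Stard4, a carrier of cholesterol between membranes, stood at 25.1, 29.4, 26.5 and 26.5 CPM in the wild-type libraries and at 32.5, 31.8, 33.7 and 32.3 CPM in those of knockout. Its 4 knockout values were close together and all higher than wild type, with a change of 0.28 ± 0.0688 (adjusted p = 0.0719).

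Srebf1 stood at 66.7, 63.8, 63.6 and 69.3 CPM in the wild-type libraries and at 69.6, 61.6, 65.2 and 73.0 CPM in those of knockout, with a change of 0.033 ± 0.0702 (SE, edgeR adjusted p = 0.856). Scap stood at 38.2, 40.6, 40.8 and 44.8 CPM in the wild-type libraries and at 42.7, 38.1, 36.4 and 46.5 CPM in those of knockout, with a change of -0.0063 ± 0.0863 (adjusted p = 0.98). In both genes the lowest and the highest library were knockout libraries. The sign of the Scap change turned with library totals or upper quartile factors in place of TMM scaling.

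All 9 genes of fatty acid synthesis and desaturation had a change above 0, but the median was 0.15 and only Scd2 separated the groups. None was called by edgeR (3 had an unadjusted p under 0.05, DESeq2 called 2 and limma-voom 0). Elovl6, which lengthens palmitate, stood at 25.7, 20.7, 24.4 and 30.3 CPM in the wild-type libraries and at 35.1, 39.5, 38.2 and 29.5 CPM in those of knockout. Knockout replicate 4 lay below wild-type replicate 4, the only crossing, and the change was 0.49 ± 0.12 (SE, edgeR adjusted p = 0.0694; 0.0242 without knockout replicate 4).

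Scd1 and Scd2 are stearoyl-CoA desaturases, which place the first double bond in saturated fatty acids. Scd1 stood at 28.1, 20.9, 27.7 and 24.3 CPM in the wild-type libraries and at 32.5, 32.0, 42.0 and 26.8 CPM in those of knockout, with only knockout replicate 4 inside the wild-type range. Scd2 stood at 283, 285, 294 and 300.4 CPM in the wild-type libraries and at 314, 332, 368 and 318 CPM in those of knockout, with no overlap. The changes were 0.40 ± 0.135 for Scd1 and 0.20 ± 0.0707 for Scd2 (SE, edgeR adjusted p = 0.168 and 0.184). TPM are counts divided by exon length and scaled to 1 total in every library, so that genes can be compared. On that scale Scd2 was much the higher of the pair in wild type, at 188 ± 10.5 TPM against 18.2 ± 2.46 TPM for Scd1 (SD, n = 4).

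Fads1 and Fads2, the desaturases of polyunsaturated fatty acids, had the smallest changes of these desaturases. Fads1 stood at 105, 89.2, 90.8 and 98.0 CPM in the wild-type libraries and at 101, 96.8, 96.0 and 97.2 CPM in those of knockout, with a change of 0.029 ± 0.0682 (SE, edgeR adjusted p = 0.867). Fads2 stood at 34.7, 27.4, 33.9 and 36.6 CPM in the wild-type libraries and at 37.0, 36.3, 34.8 and 36.3 CPM in those of knockout, with a change of 0.12 ± 0.0864 (adjusted p = 0.488). All knockout values of Fads1 and all but 1 of Fads2 lay inside the wild-type range. Acly and Acss2, which supply cytosolic acetyl-CoA, and Acaca and Fasn, the carboxylase and synthase that build the chain, had changes of 0.059, 0.15, 0.18 and 0.11, none with an adjusted p below 0.327. Wild-type replicate 2 was the lowest wild-type library for Acly, Acaca, Fasn and Fads2, and without it their changes were 0.0033, 0.092, 0.042 and 0.042. Without wild-type replicate 4 the changes of Acly and Fasn were 0.12 and 0.21, and that of Acss2 ran from 0.077 without wild-type replicate 3 to 0.24 without wild-type replicate 1. Scd1 has close copies, Scd3 and Scd4, with mean wild-type levels of 0.0555 and 0.968 CPM. The 4 knockout values of Acly, Acaca, Fads1 and Fads2 were closer together than the wild-type values, as in Acaca, which ran from 44.0 to 45.5 CPM in knockout but from 32.2 to 44.5 CPM in wild type.

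Both the cholesterol and the fatty acid genes lay mostly above their wild-type mean in each knockout library. This held in 14 to 17 of 17 and in 8 or 9 of 9 genes. The share of all tested genes by library is not given here. Between the groups, 49.9% of tested genes had a log2 change above 0. Measured as the median log2 distance from each gene's wild-type mean, the 17 enzymes from acetyl-CoA to cholesterol stood at 0.20, 0.16, 0.49 and 0.42 in knockout replicates 1 to 4, against -0.038 to 0.028 in the wild-type libraries. Knockout replicate 3 was the highest knockout library for 9 of these 17 genes and replicate 4, the library with reads in the most genes, for 7. The 9 fatty acid genes stood at 0.20, 0.14, 0.096 and 0.14 in knockout replicates 1 to 4, and the wild-type libraries themselves ran from -0.21 in replicate 2 to 0.15 in replicate 4. The medians of the cholesterol enzymes thus lay outside the wild-type range in all 4 knockout libraries. Those of the fatty acid genes did so in 1. The wild-type libraries set the mean from which distances are taken, so their range lies around 0 by construction. Whether the roles differ in their change was not tested. The median SD of log2 CPM between libraries over the 17 enzymes was 0.097 in wild type and 0.18 in knockout, and over the 9 fatty acid genes 0.20 and 0.079. Over all tested genes it was 0.15 and 0.17, and these spreads were not tested against each other.

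**Figure D3:**
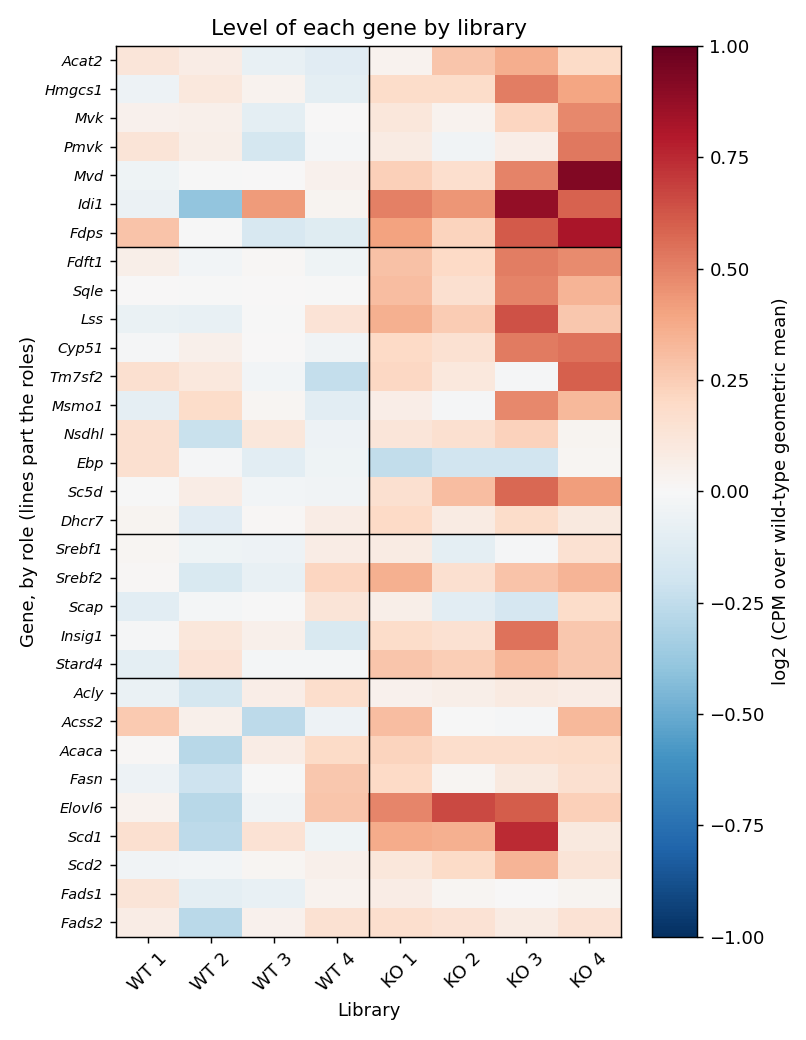
Colour gives the log2 ratio of each gene's CPM in 1 library to its geometric mean over the 4 wild-type libraries, with genes in rows by role and libraries in columns. Red runs through most cholesterol genes in the 4 knockout columns, deepest in knockout replicates 3 and 4. The fatty acid rows are also mostly above the wild-type mean there (8 or 9 of 9 genes in each knockout library), but mostly paler, with Elovl6 and Scd1 the deepest.

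Levels per exon length in wild-type calvaria covered a wide range. Scd2 was the highest of the 31, followed by Insig1 at 73.1 ± 4.71, Hmgcs1 at 70.9 ± 3.95 and Fads1 at 70.1 ± 5.13 TPM (SD, n = 4), 3 neighbours that did not differ beyond their spread. Ebp and Acly followed at 58.7 ± 3.65 and 57.7 ± 7.61 TPM, also within their spread. Srebf1 at 41.2 ± 2.44 TPM and Srebf2 at 37.4 ± 5.03 TPM did not differ beyond their spread either. The lowest were Tm7sf2, Lss and Acss2, at 5.14 ± 0.473, 4.65 ± 0.447 and 2.55 ± 0.333 TPM. Lengths are the union of all annotated exons, 10787 bases for Lss and 10163 for Acss2, so genes with long alternative transcripts come out low.

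**Figure D4:**
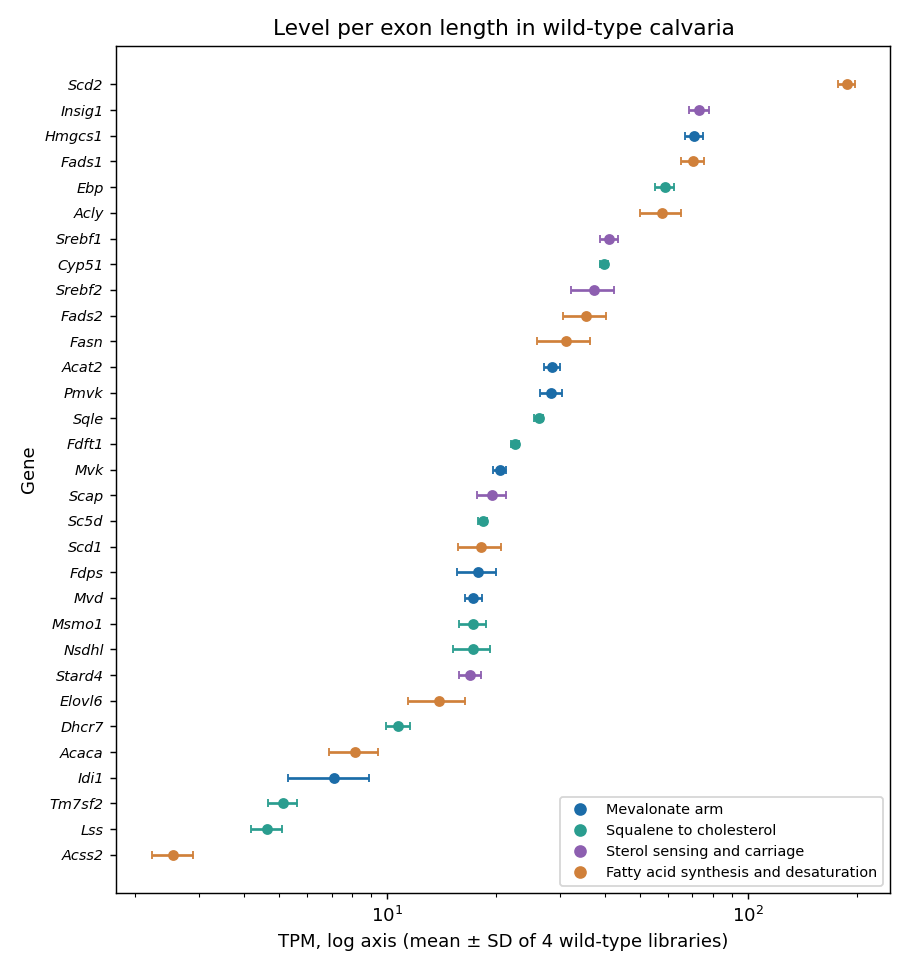
The mean TPM ± SD over the 4 wild-type libraries is plotted for each of the 31 genes on a log axis, ordered by level and coloured by role. Scd2 stands alone at 188 TPM, and genes of the same role are scattered through the order.

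Other genes of the pathway outside the 31 were examined as a list of 28, chosen by role. Of these 1 rose and none fell by edgeR, against 0.445% of all genes called higher, and 18 had a change above 0 with a median of 0.11 (9 higher and 1 lower at an unadjusted p under 0.05). DESeq2 called 3 higher and limma-voom 0. Knockout lay wholly above wild type in 6 of the 28, against 4.63% of tested genes. Lpin1, a phosphatidate phosphatase, stood at 11.9, 11.97, 11.9 and 12.4 CPM in the wild-type libraries and at 16.8, 14.3, 16.2 and 14.4 CPM in those of knockout, with a change of 0.36 ± 0.0829 (SE, edgeR adjusted p = 0.0547; 0.03 without knockout replicate 4). Its groups did not overlap, and its 4 wild-type values were close together.

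A list of 13 genes of LXR, the nuclear receptor for oxysterols, and of cholesterol export and storage had mostly negative changes. None was called by edgeR, DESeq2 or limma-voom (2 lower and 0 higher at an unadjusted p under 0.05), 10 of the 13 had a change below 0 and the median was -0.092. Over all tested genes 9.11% were lower and 8.29% higher at that unadjusted p in edgeR, and 49.9% had a change above 0. Knockout lay wholly below wild type in 0 of the 13 and wholly above in 0, against 5.96% and 4.63% of tested genes. Abca1, the exporter of cholesterol to apolipoprotein A-I, stood at 98.2, 106, 124 and 114 CPM in the wild-type libraries and at 102, 89.9, 89.2 and 84.3 CPM in those of knockout, with a change of -0.28 ± 0.0861 (SE, edgeR adjusted p = 0.138). Knockout replicate 1 was the only knockout library inside the wild-type range. Npc2, a lysosomal sterol carrier, stood at 349, 390, 388 and 351 CPM in the wild-type libraries and at 292, 309, 340 and 356 CPM in those of knockout, with a change of -0.19 ± 0.0807 (adjusted p = 0.257). Nceh1, a cholesteryl ester hydrolase, stood at 12.2, 14.9, 16.9 and 17.6 CPM in the wild-type libraries and at 11.9, 11.9, 15.1 and 14.7 CPM in those of knockout, with a change of -0.20 ± 0.127 (adjusted p = 0.442). Both overlapped between the groups.

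Levels of other cell types were measured in the same libraries because lipid synthesis genes are not particular to bone cells. Beside the counts below, edgeR called 0.874% of all tested genes lower and 0.445% higher. At an unadjusted p under 0.05 in edgeR, 9.11% were lower and 8.29% higher, and DESeq2 called 3.04% lower and 2.33% higher. Osteoblast markers were abundant in every library, their sum running from 147000 to 193300 CPM, and 1 of 10 fell (Bglap). All 10 macrophage markers had a change below 0 in knockout and 3 fell (Lyz2, Cx3cr1 and Ccr2), with a summed level of 617 to 796 CPM in wild type and 481 to 562 CPM in knockout, none at 0. Of the 8 myelin markers tested 2 fell, Mbp among them, and their sum was 200 to 224 CPM in wild type and 193 to 203 CPM in knockout. The macrophage sum and genotype cannot be told apart, since the groups do not overlap. With the macrophage score as a covariate, tried after seeing the data, 25 of the 31 changes were above 0 and their median was 0.21; with the myelin score 29 were above 0 and the median was 0.26. All 9 tested adipocyte markers had a change below 0 and none was called (3 lower at an unadjusted p under 0.05, 2 lower in DESeq2), with a sum of 160 to 317 CPM in wild type and 127 to 192 CPM in knockout. Most of that sum was Fabp4 and Lpl, with means of 99.8 and 87.3 CPM in wild type and 70.4 and 60.6 CPM in knockout. Adipoq and Plin1 had means of 2.94 and 2.55 CPM in wild type and 1.07 and 1.11 CPM in knockout. Adipoq was at 463 counts in wild-type replicate 1 and at 4 to 125 in the others. Skin markers, low throughout, summed to 13.04 to 16.4 CPM in wild type and 13.4 to 19.5 CPM in knockout. With the adipocyte score as a covariate the median change of the 31 genes was 0.25. Of 9 proliferation markers 8 had a change above 0, none was called (3 higher at an unadjusted p under 0.05, 0 in DESeq2), and their sum was 860 CPM in knockout replicates 2 and 3 against 657 to 730 CPM in the other libraries; their part was not tested.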

How the data were processed

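The deposited table holds whole-number read counts for every gene ID and library, not normalized by the authors. The submitters' processing notes list bcl2fastq 2.17, STAR 2.5.2b, featureCounts, Subread 1.5.2 and the build mm10. Sources used here do not state the annotation release or strand setting. Symbols, positions and exon lengths came from GENCODE M21 on that build (49056 of 49315 IDs). Groups came from the sample titles.

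Genes passing edgeR's filterByExpr (minimum count 10, total 15; 17743 genes, 99.9% of counts) were scaled with TMM factors (0.972 to 1.04). Knockout was compared with wild type by the quasi-likelihood test of edgeR 4.0.16 in R 4.3.3 (robust, two-sided, Benjamini-Hochberg threshold 0.05), tested on simulated data. CPM uses TMM-scaled totals, log2 CPM a prior count of 2, and TPM counts per exon length. Cell type scores are mean log2 CPM of marker lists. DESeq2 1.42.0, limma-voom (limma 3.58.1), other scalings, filters, covariates, a replicate block and left-out libraries were alternatives. The 31 genes and all lists were chosen with earlier results of these data known. Values in every library were given for called genes, Srebf1, Srebf2, Scap, Insig1, the 3 genes of smallest p in each role and the Scd and Fads pairs, and, outside the 31, for genes of smallest p; some genes that this rule names are not reported here. Of the listed markers, 1 symbol had no row. No sample was left out of the main comparison. Figures were drawn with matplotlib 3.10.9. Counting error assumes independent reads, which PCR duplicates are not.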

Additional observations from a re-analysis of the deposited data

How the results depend on the processing

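The number of called genes among the 31, 1 in the main comparison, was 4 with library totals, 2 with upper quartile factors, 5 with no count filter, 2 with a filter at 1 CPM, 14 in DESeq2 and 0 in limma-voom. It was 10 with the skin score and 2 with the adipocyte score as a covariate, 0 without the 3 muscle-poor libraries and 0 to 4 when 1 library was left out (4 without knockout replicate 4; 0 without wild-type replicate 2, 3 or 4 or knockout replicate 2 or 3). Over all tested genes the count, 234, was 355 with no filter, 952 in DESeq2, 586 with the skin score, 8 without the muscle-poor libraries and 57 to 608 when 1 library was left out (608 without knockout replicate 4; 57 and 82 without knockout replicates 2 and 3; 79, 75 and 105 without wild-type replicates 2, 3 and 4). Among the 28 other pathway genes the count of 1 became 3, 2, 2, 2, 3 and 0 under library totals, upper quartile factors, no filter, the 1 CPM filter, DESeq2 and limma-voom, 2 and 0 with the skin and adipocyte scores, 0 without the muscle-poor libraries and 0 to 3 with 1 library left out. The cause of these shifts was not tested.

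The median change of the 31 genes stayed above 0 in all 22 alternatives, at 0.28 with library totals, which moved the median of all genes to 0.053, and from 0.21 to 0.28 when 1 library was left out. The share of calls that were lower was 66.2% in the main comparison, 46.7% with library totals, 76.8% with the adipocyte score, 82.5% with the replicate block and 49.8% without knockout replicate 4. With the replicate number as a block, 0 of the 31 genes, 0 of the 28 and 126 genes in all were called (adjusted p of Fdft1 0.0955). Same-numbered libraries did not deviate together (correlations 0.26, -0.18, 0.34 and -0.0050 for numbers 1 to 4), so the numbers are not taken to pair the mice, and only 1 library correlated best with its own number.

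Of 31 genes, 21 kept their sign in all alternatives. Scap turned to 0.047 with library totals, 0.014 with upper quartile factors, 0.0054 with the 1 CPM filter, 0.12 without the muscle-poor libraries, and 0.036, 0.035 and 0.044 without wild-type replicate 4 and knockout replicates 2 and 3 (range with 1 library left out -0.067 to 0.044). Srebf1 turned to -0.0018 without knockout replicate 4 (range to 0.082) and Fads1 to -0.0038 without wild-type replicate 2 (range to 0.074). Covariates for the macrophage and myelin scores were chosen after seeing the data, and the SE of Fdft1 rose from 0.0798 to 0.214 and 0.186 with them; 0 of the 31, 0 of the 28 and 0 genes in all were called with either. With the macrophage score Acat2, Nsdhl, Scd1, Scd2 and Fads1 turned to -0.12, -0.12, -0.34, -0.0050 and -0.055, and Scap and Nceh1 to 0.47 and 0.054. With the myelin score Msmo1 and Insig1 turned to -0.017 and -0.013, and Ebp and Scap to 0.14 and 0.24. The medians by role also moved. With the macrophage score they were 0.55 for the mevalonate arm, 0.14 for squalene to cholesterol and 0.15 for the fatty acid genes. With the myelin score the same roles stood at 0.49, 0.26 and 0.33.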
